A study of Homo sapiens with 12 samples.

Results

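This section describes 53 genes of the extracellular matrix and of the mesenchymal state in MDA-MB-231, an established human line of triple-negative breast cancer, across 4 groups of cells. The genes were chosen as a list of collagens, laminins, matrix glycoproteins, proteoglycans, cadherins and mesenchymal factors. Of these, 51 had a probe set naming that gene alone, out of 11963 genes measured, and COL12A1 and LAMA3 were not analysed here. Cells in full medium with serum received manassantin (3 arrays), rotenone (3 arrays), digoxin (3 arrays) or the vehicle DMSO (3 arrays) for 24 h, and total RNA was measured on Affymetrix GeneChip arrays. Manassantin is a plant lignan that the series' design text names as manassantin A. Rotenone inhibits respiratory complex I, and digoxin, a foxglove glycoside, inhibits the Na+/K+-ATPase. The design text names digitoxin, a related glycoside, where the sample titles name digoxin, and the titles' name is used here. The sources used here state neither the doses nor the oxygen level. Whether the 3 arrays of each group stand for separate cultures is unstated too, so the p-values cover the spread among these arrays alone, which may be technical.

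The extracellular matrix is the protein network around cells. Fibrillar collagens give it tensile strength, while type IV collagen, laminins, nidogens, perlecan and agrin build the thin sheet called the basement membrane, and matricellular proteins such as thrombospondin and the CCN proteins pass signals to cells rather than carry load. Carcinoma cells that have undergone an epithelial-mesenchymal transition have typically lost E-cadherin and gained vimentin under repressors such as ZEB1 and the SNAIL family, and MDA-MB-231 is a common model of that state.

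Values are log2 intensities of 1 probe set per gene, the one with the highest mean over the 12 arrays, and a difference of 1 is a 2-fold change. A probe set's brightness also depends on its probes, so readings of different genes, and the term dim, describe these probe sets and give no order of abundance. Genes with a mean under 5.75, the 40th percentile of all genes, are termed dim, and 19 of the 51 members were dim. In DMSO cells VIM, the intermediate filament protein of mesenchymal cells, read 13.24 ± 0.057 (SD, n = 3), CCN1 11.81 ± 0.034, FN1, fibronectin, 11.34 ± 0.21, COL13A1, a transmembrane collagen, 11.20 ± 0.066 and CCN2 11.05 ± 0.0585. Members with dim probe sets included POSTN (2.27 ± 0.16), TWIST1 (2.47 ± 0.066), NID2 (3.02 ± 0.16), COL5A2 (3.74 ± 0.063) and CDH1, E-cadherin (3.55 ± 0.13). The line's labelled identity was checked against its markers. Of mesenchymal markers, VIM, AXL, MSN, CALD1, CD44, S100A4, ENG, CDH11, ZEB1 and SNAI2 were not dim, whereas CDH2, N-cadherin, TWIST1, ZEB2, SNAI1, THY1, PRRX1, FOXC2 and TCF4 were dim. The epithelial regulators ESRP1, GRHL2 and OVOL1 and the junction genes CDH1, CDH3, OCLN, CLDN3 and TJP3 were dim. The other epithelial genes, among them KRT19 (10.54 in DMSO) and EPCAM (8.03), were not dim. Of the receptor genes whose products triple-negative tumours lack, PGR was dim, and ESR1 (6.08) and ERBB2 (7.96) were not. The fibroblast markers DCN, LUM, POSTN, COL3A1 and PRRX1 were all dim, and COL1A1 read 6.499 in DMSO cells.

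Each compound was compared with DMSO to find which members it moved, and manassantin with rotenone to find where these compounds differed. A member is called where limma's Benjamini-Hochberg adjusted p over all 11963 genes was under 0.05. With manassantin 2 of 51 members were called, both higher (3.92%, against 0.97% of all genes called and 0.853% called higher). With rotenone 2 members rose and 4 fell (11.8%, against 6.94% of all genes, 3.55% higher and 3.39% lower). With digoxin 14 rose and 15 fell (56.9%, against 54.8% of all genes, 28.0% higher and 26.9% lower), a share near that of all genes. Of members not dim, 6.25% were called with manassantin, 12.5% with rotenone and 78.1% with digoxin, against 1.52%, 10.4% and 69.3% of such genes. Of dim members 0%, 10.5% and 21.1% were called, against 0.146%, 1.73% and 33.1% of dim genes. Between manassantin and rotenone 6 members were called, all higher with manassantin (11.8%, against 8.47% of all genes, 4.69% higher and 3.78% lower). The arrays of the groups did not overlap for 17.6% of members with manassantin, 29.4% with rotenone and 62.7% with digoxin, against 22.4%, 31.2% and 61.9% of all genes, and for 29.4% between manassantin and rotenone, against 29.2%. Over the members the median log2 fold change was 0.01 with manassantin, -0.03 with rotenone and 0.04 with digoxin, where over all genes it was 0.01, 0.01 and 0.07. An unadjusted p under 0.05 was reached by 1896 of all 11963 genes with manassantin and 2545 with rotenone, and by 7 and 10 of the 51 members. The 3 comparisons with DMSO share the same DMSO arrays, so they are not independent of each other.

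**Figure D1:**
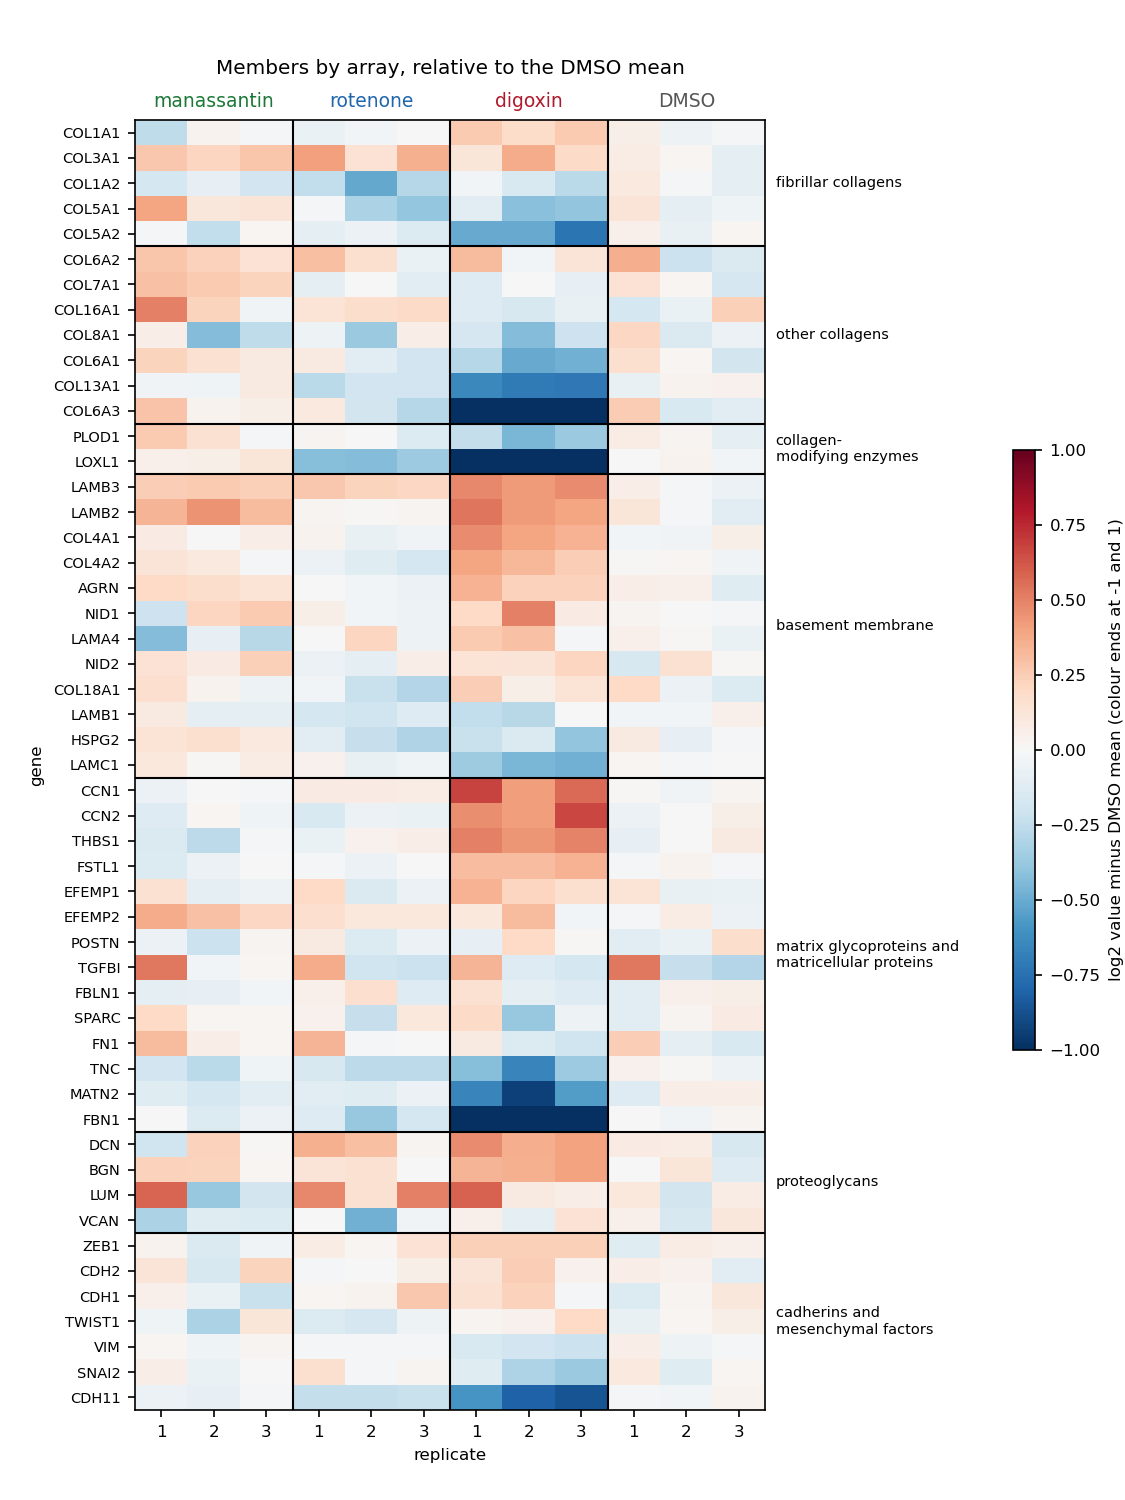
Log2 value of each of the 51 members (rows, grouped by role and sorted by the digoxin change) on each of the 12 arrays (columns, replicates 1 to 3 of each group), minus the member's DMSO mean; colour ends at -1 and 1. LOXL1, COL6A3 and FBN1 are at the blue end on all 3 digoxin arrays, while most members differ little on the manassantin and rotenone arrays.

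Which small digoxin changes were called, and the balance of higher and lower calls, depended on the scale. Digoxin arrays had a median over all probe sets of 5.90 ± 0.015 (SD, n = 3), against 5.98 ± 0.004 on DMSO arrays. With every array centred on its median, 21 members were higher and 11 lower with digoxin, 25 of them called without centring too. The same centring gave 64.4% of all genes called, 5020 higher and 2685 lower, so the move towards higher was not particular to the members. Centring changed the direction of 0 of the 29 uncentred calls, and it ended the calls of VIM, SNAI2, HSPG2 and COL5A1. It added calls of 7 members that were higher, EFEMP1 and COL18A1 and the dim EFEMP2, LAMA4, NID1, NID2 and CDH2.

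Of 5 fibrillar collagens 2 rose and 2 fell with digoxin, and of 7 other collagens 0 rose and 3 fell. These are 80% and 42.9% called, against 54.8% of all genes. COL6A3, which encodes the largest chain of the microfibril-forming type VI collagen, read 6.59, 6.10 and 6.28 on digoxin arrays, against 8.27, 7.86 and 7.91 on DMSO arrays. No digoxin array overlapped with a DMSO array, and the fall was 3.24-fold (log2 fold change -1.69 ± 0.14, SE, limma adjusted p = 9.17e-07). In manassantin cells COL6A3 read 8.30, 8.05 and 8.07 and in rotenone cells 8.11, 7.83 and 7.73, within 0.13 of DMSO on average and not called. Of the other chains of the same collagen, COL6A1 fell by 0.42 with digoxin on the probe set used, but 4 of its 7 other, dimmer probe sets were called higher, and COL6A2 stood at 0.14 (limma adjusted p = 0.428). The direction of COL6A1 is therefore unsettled.

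COL13A1 read 10.55, 10.49 and 10.49 with digoxin, 10.93, 11.01 and 11.01 with rotenone and 11.12, 11.24 and 11.24 in DMSO cells. It was lower with both compounds, by 0.69 ± 0.054 with digoxin and by 0.22 ± 0.054 with rotenone (SE, limma adjusted p = 4.42e-07 and 0.0344). The rotenone call held in 1 of the 6 fits that each left out an array, and 0 of the 2 other COL13A1 probe sets were called with rotenone. Type V collagen regulates the width of collagen fibrils, and both of its measured chains fell with digoxin. COL5A2 was at -0.58 ± 0.081 but dim, and COL5A1 was at -0.30 ± 0.12 (limma adjusted p = 6.45e-05 and 0.0428). The 2 other probe sets of COL5A1 were lower by more, at -0.60 and -0.89. COL5A2 and COL3A1 lie near each other on chromosome 2 and moved in opposite directions with digoxin, COL3A1 at 0.23, although both were dim. COL3A1, of type III collagen, also rose with rotenone, at 4.06, 3.79 and 4.002 on rotenone arrays, against 3.72, 3.66 and 3.55 on DMSO arrays (0.31 ± 0.081, SE, limma adjusted p = 0.0442). None of its 3 other probe sets was called with rotenone.

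Type I collagen is the main collagen of fibrous tissue, and its chains did not move together. COL1A2 read 5.37, 5.10 and 5.33 with rotenone, against 5.71, 5.61 and 5.53 with DMSO, a fall of 0.35 ± 0.082 (SE, limma adjusted p = 0.0256) that its other probe set shared at -0.60. With digoxin COL1A2 was not called on the probe set used (-0.15, limma adjusted p = 0.141) and fell on the dimmer one, by 0.83. COL1A1 was higher with digoxin by 0.24 on the probe set used and by 0.39 on a second, and stood at -0.32 on another, so its direction is unsettled. COL7A1, COL8A1 and COL16A1 were called with none of the 3 compounds against DMSO.

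Among enzymes that modify collagen, LOXL1 had the largest change of any member. Lysyl oxidase-like enzymes cross-link collagen and elastin. LOXL1 read 7.06, 7.06 and 7.13 with manassantin, 6.58, 6.57 and 6.64 with rotenone and 5.23, 5.01 and 5.26 with digoxin, against 7.0, 7.04 and 6.98 with DMSO. The digoxin and rotenone arrays were each clear of the DMSO arrays and of each other. Digoxin lowered it 3.58-fold (log2 fold change -1.84 ± 0.063, SE, limma adjusted p = 6.32e-10) and rotenone 1.33-fold (-0.41 ± 0.063, limma adjusted p = 0.00281). With manassantin the difference was 0.08 (limma adjusted p = 0.613). LOXL1 was the 1 member whose rotenone call held with each of the 6 arrays left out in turn. PLOD1, a lysyl hydroxylase of collagen, fell by 0.36 ± 0.082 with digoxin (limma adjusted p = 0.00289).

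**Figure D2:**
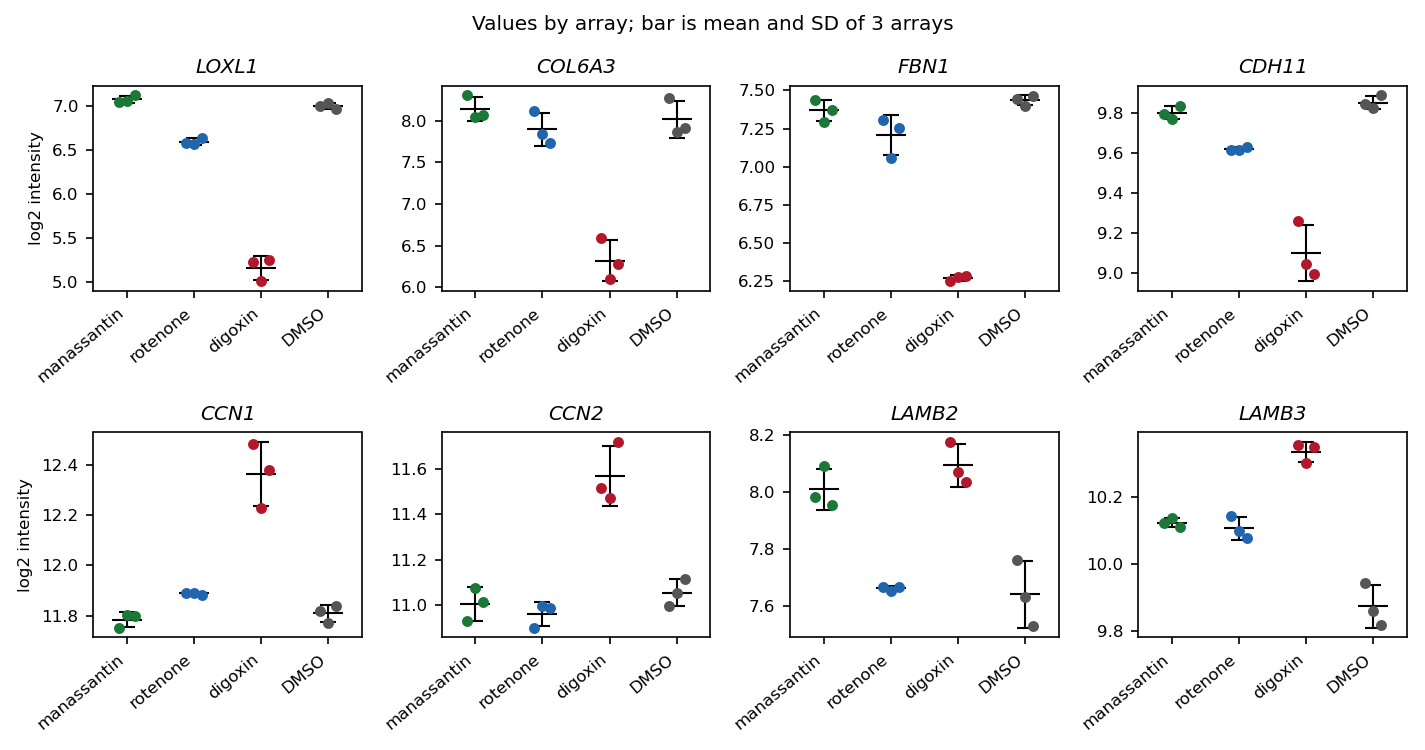
Log2 intensity of 8 members on each array (points) by group, with the mean and SD of 3 arrays (bars); each panel has its own axis, which does not start at 0. LOXL1, COL6A3, FBN1 and CDH11 are lowest and CCN1, CCN2 and LAMB3 highest on the 3 digoxin arrays, and LAMB2 is higher on manassantin and digoxin arrays than on rotenone and DMSO arrays.

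In the basement membrane group 5 of 12 measured members rose and 2 fell with digoxin, 2 rose with manassantin and 1 rose with rotenone. The shares called were 58.3% with digoxin, 16.7% with manassantin and 8.33% with rotenone, against 54.8%, 0.97% and 6.94% of all genes. LAMB3 encodes the beta chain of the laminin that anchors epithelia. It read 10.12, 10.14 and 10.11 with manassantin, 10.14, 10.10 and 10.08 with rotenone and 10.35, 10.30 and 10.35 with digoxin, against 9.94, 9.86 and 9.82 with DMSO. All 9 treated arrays were above all 3 DMSO arrays, and the differences were 0.25 with manassantin, 0.23 with rotenone and 0.46 with digoxin (SE 0.046 each, limma adjusted p = 0.0339, 0.0128 and 3.82e-06). LAMB2, a laminin beta chain of vessel, muscle and kidney basement membranes, read 7.98, 8.09 and 7.95 with manassantin and 8.18, 8.07 and 8.03 with digoxin, against 7.76, 7.63 and 7.53 with DMSO. It rose by 0.37 ± 0.065 with manassantin (SE, limma adjusted p = 0.0263) and by 0.45 ± 0.065 with digoxin (limma adjusted p = 8.1e-05). In rotenone cells it read 7.67, 7.65 and 7.67, inside the DMSO range. Both manassantin calls were unstable, since LAMB2 was called in 1 and LAMB3 in 0 of the 6 fits that each left out an array. Neither was called with the 18S rRNA control as a covariate. That control was lower by 0.565 with manassantin, by 0.388 with rotenone and by 0.314 with digoxin than with DMSO (exact permutation tests, two-sided, p = 0.3, 0.2 and 0.2, where 3 against 3 cannot go below 0.1), and its part in the results was not tested beyond that covariate.

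COL4A1 and COL4A2 encode the chains that form the common type IV collagen of basement membranes. They are transcribed in opposite directions with 126 bases between their starts. That interval was listed to be shown when the analysis was planned, and its part in the expression of the pair was not tested. It lies at chr13:110307158-110307283 of GRCh38.p14 (RefSeq), is printed on the plus strand, the strand of COL4A2, and ends just before the COL4A2 start, with the COL4A1 start just before its first base on the other strand. G and C make up 80.2% of it, where the median over the 250 bases before the start of all genes listed was 58.0%.
COL4A1 and COL4A2: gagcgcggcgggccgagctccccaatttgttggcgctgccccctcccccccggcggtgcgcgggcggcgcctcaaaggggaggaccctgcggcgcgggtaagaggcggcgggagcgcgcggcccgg

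COL4A1 read 8.88, 8.79 and 8.75 with digoxin, against 8.37, 8.37 and 8.46 with DMSO, and COL4A2 read 9.79, 9.72 and 9.64 with digoxin, against 9.41, 9.41 and 9.36 with DMSO. Neither gene's digoxin arrays overlapped with its DMSO arrays. The rises were 0.41 ± 0.053 for COL4A1 and 0.32 ± 0.058 for COL4A2 (SE, limma adjusted p = 3.33e-05 and 0.000465), and the second probe set of each was higher as well, by 0.56 and 0.33. With manassantin the pair stood at 0.05 and 0.07 and with rotenone at -0.02 and -0.12, none of them called. The heparan sulfate proteoglycan gene AGRN rose by 0.27 ± 0.058 with digoxin (limma adjusted p = 0.00175), whereas HSPG2, perlecan, was at -0.25 ± 0.073 (limma adjusted p = 0.0107) and lost its call with centred arrays (limma adjusted p = 0.0661). LAMC1, the gamma chain of most laminins, fell by 0.43 with digoxin on its brighter probe set and rose by 0.67 on the other, so its direction is unsettled. LAMB1, LAMA4, NID1, NID2 and COL18A1 were called with none of the compounds against DMSO.

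Of 14 matrix glycoproteins and matricellular proteins, 4 rose and 3 fell with digoxin (50% called, against 54.8% of all genes). With manassantin and rotenone 0 were called, against 0.97% and 6.94% of all genes, and 1 and 2 reached an unadjusted p under 0.05. The genes that rose were CCN1, CCN2, THBS1 and FSTL1. CCN1 and CCN2 are immediate early, integrin-binding proteins, THBS1 encodes thrombospondin-1, which binds CD47 and activates latent TGF-beta, and FSTL1 is a secreted follistatin-like glycoprotein. CCN1 read 12.48, 12.23 and 12.38 with digoxin, against 11.82, 11.77 and 11.84 with DMSO, and CCN2 read 11.52, 11.47 and 11.72 with digoxin, against 11.00, 11.05 and 11.11 with DMSO. THBS1 read 11.32, 11.26 and 11.31 with digoxin, against 10.73, 10.81 and 10.90 with DMSO. All digoxin arrays lay above all DMSO arrays for the 3 genes. CCN1 rose by 0.55 ± 0.059, CCN2 by 0.52 ± 0.069, THBS1 by 0.48 ± 0.068 and FSTL1 by 0.32 ± 0.047 (SE, limma adjusted p = 6.39e-06, 4.24e-05, 7.23e-05 and 9.53e-05). The probe sets used gave the smallest rises of CCN1 and THBS1: the second of CCN1 was higher by 1.14, and the 4 others of THBS1 by 0.92 to 1.47. With manassantin CCN1 stood at -0.02, CCN2 at -0.05 and THBS1 at -0.14, and with rotenone at 0.08, -0.09 and 0.01, none of them called. For CCN1 the 95% confidence interval was -0.15 to 0.10 with manassantin and -0.05 to 0.21 with rotenone. For THBS1 another probe set fell by 0.40 with manassantin and a dimmer one rose by 0.63 with rotenone in the fit of every probe set (limma adjusted p = 0.015 and 0.00152).

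CCN1 and CCN2 are textbook targets of the TEAD transcription factors, which act with the coactivators YAP1 and WWTR1 (TAZ) and bind the letters GGAATG. The 250 bases before the start of CCN2 and of THBS1 are shown with each GGAATG, on either strand, in capitals. Both genes rose with digoxin, and their sequences were not among those listed when the analysis was planned. CCN2 lies at chr6:131951373-131951622, minus strand, and THBS1 at chr15:39580829-39581078, plus strand (RefSeq, GRCh38.p14).
CCN2: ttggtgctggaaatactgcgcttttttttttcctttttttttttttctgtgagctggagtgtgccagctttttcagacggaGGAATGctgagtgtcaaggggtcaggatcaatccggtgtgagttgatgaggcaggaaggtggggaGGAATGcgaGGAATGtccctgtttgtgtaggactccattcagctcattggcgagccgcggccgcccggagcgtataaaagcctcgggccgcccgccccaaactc
THBS1: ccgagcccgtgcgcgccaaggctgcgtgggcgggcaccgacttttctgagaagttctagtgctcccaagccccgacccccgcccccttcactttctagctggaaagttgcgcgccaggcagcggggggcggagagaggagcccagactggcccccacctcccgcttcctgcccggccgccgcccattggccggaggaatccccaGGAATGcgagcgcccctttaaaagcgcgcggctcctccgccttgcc

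CCN2 held 3 such matches and THBS1 held 1. Among the 35 measured members with such a sequence, 4 held the letters on either strand (CCN2, THBS1, FBN1 and SPARC), or 11.4%, against 14.3% of 27305 genes. CCN1 was not among these 4 members: it either lacked the letters in those bases or had no sequence listed. FBN1 fell and SPARC was not called with digoxin, so members holding the letters did not share a direction. A match is a description of the sequence and not a binding site. The list of YAP/TAZ-TEAD and SRF-MRTF factors and targets had 18 of 20 genes measured. With digoxin 8 of them rose and 4 fell (66.7% called, against 54.8% of all genes). With rotenone 2 rose (11.1%, against 6.94% of all genes). With manassantin 0 were called (against 0.97% of all genes), where 2 reached an unadjusted p under 0.05. YAP1 was higher by 1.52 with digoxin and TEAD1 by 0.96, whereas VCL, vinculin, was at -0.86 and MRTFB, a coactivator of SRF, at -1.63. WWTR1, unlike YAP1, was lower with digoxin, at 8.98 ± 0.13 (mean ± SD) against 9.76 ± 0.050 with DMSO. With rotenone YAP1 rose by 0.33 and TAGLN by 0.24 (limma adjusted p = 0.0297 and 0.0384).

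FBN1, MATN2 and TNC moved the other way with digoxin. FBN1 encodes fibrillin-1, the core of elastic microfibrils, and read 6.25, 6.28 and 6.28 with digoxin, against 7.44, 7.40 and 7.46 with DMSO. The groups lay far apart, a 2.24-fold fall (-1.16 ± 0.064, SE, limma adjusted p = 2.14e-08), and the dimmer probe set was at -0.67. In rotenone cells FBN1 read 7.30, 7.06 and 7.26, below every DMSO array, but was not called (-0.23, limma adjusted p = 0.0534). MATN2, a matrilin that links filaments of the matrix, fell by 0.72 ± 0.086, and TNC, tenascin-C, by 0.48 ± 0.080 (SE, limma adjusted p = 1.76e-05 and 0.000263). FN1 did not pass in any comparison. Its values were 11.66, 11.40 and 11.36 with manassantin, 11.68, 11.32 and 11.34 with rotenone and 11.43, 11.21 and 11.14 with digoxin, against 11.58, 11.25 and 11.18 with DMSO, and in each group the array of replicate 1 was the highest. The digoxin difference was -0.08 (95% confidence interval -0.36 to 0.21). SPARC, a collagen-binding matricellular protein, was dim and lay within 0.08 of DMSO with every compound. TGFBI, EFEMP1, EFEMP2, FBLN1 and POSTN were called with none of the compounds against DMSO. EFEMP1 stood at 0.24 with digoxin (limma adjusted p = 0.055), with every digoxin array above every DMSO array. It was called with the replicate block and with centred arrays (limma adjusted p = 0.0016 and 0.0108), though the labels do not pair the arrays by number.

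**Figure D3:**
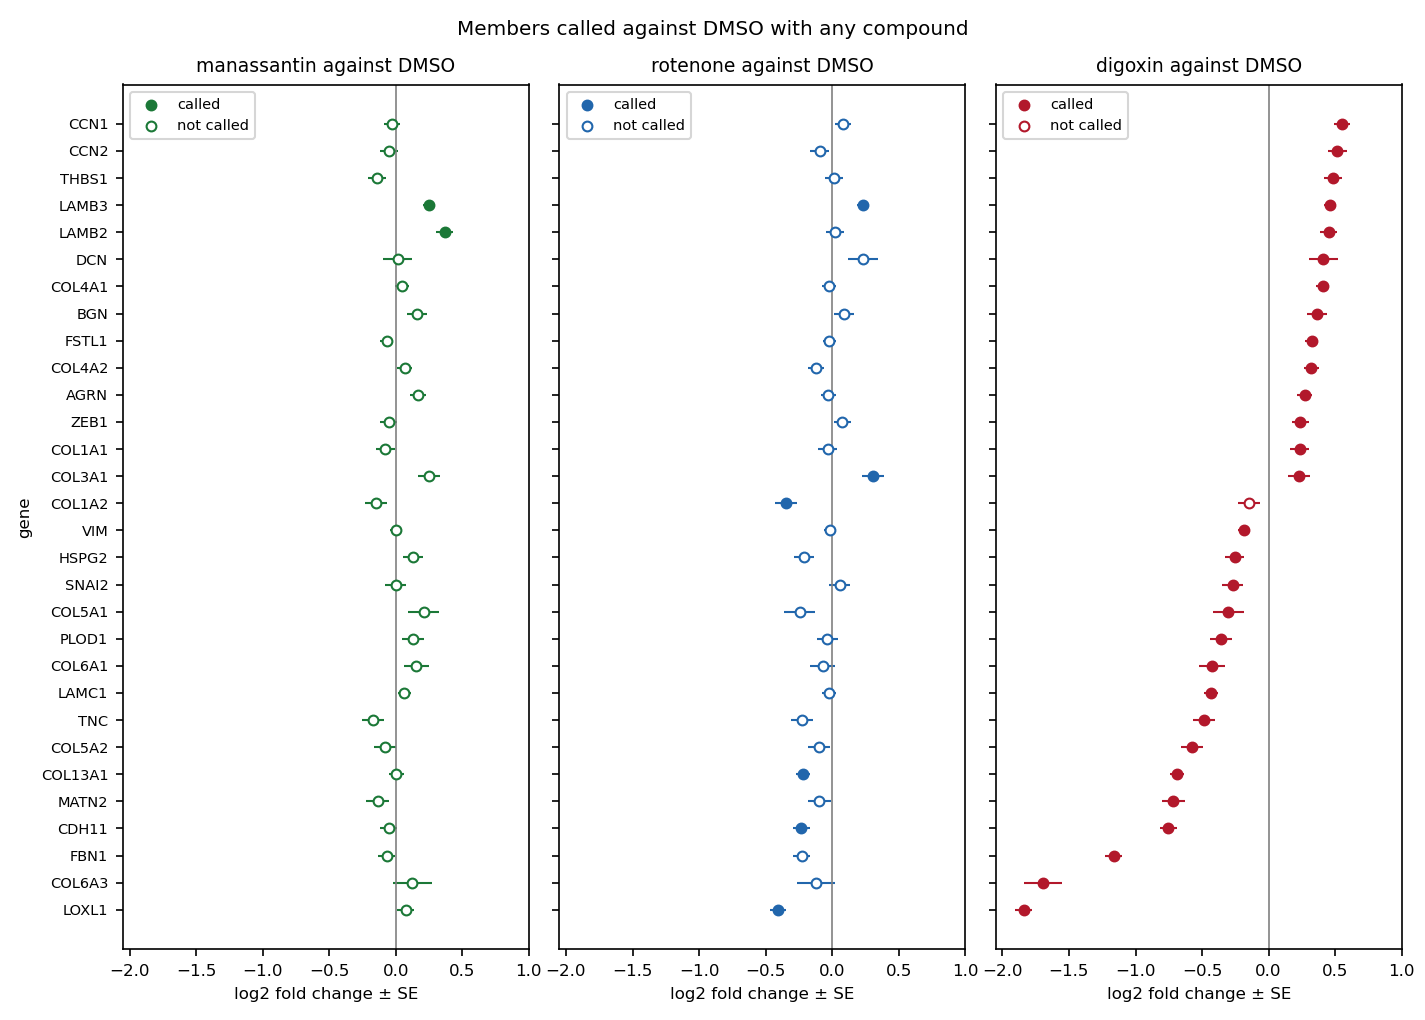
Log2 fold change against DMSO with its SE for the 30 members called with any of the 3 compounds, 1 panel per compound; filled points passed limma's adjusted p of 0.05. Digoxin gives 29 filled points from LOXL1 at -1.84 to CCN1 at 0.55, rotenone 6 and manassantin 2.

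The small leucine-rich proteoglycans BGN, DCN and LUM and the large VCAN were dim. BGN, biglycan, rose by 0.36 ± 0.076 and DCN, decorin, by 0.41 ± 0.11 with digoxin (SE, limma adjusted p = 0.0014 and 0.0081), both of which bind collagen fibrils. No other probe set of either gene was called. LUM, lumican, the neighbour of DCN on chromosome 12, stood at 0.25 (limma adjusted p = 0.355) and VCAN, versican, at 0.03 (limma adjusted p = 0.834).

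The cadherins and mesenchymal factors were not called with manassantin in any of 7 cases, against 0.97% of all genes called. None of the 7 reached an unadjusted p under 0.05, against 1896 of all 11963 genes. With rotenone 1 fell (14.3%, against 6.94% of all genes), and with digoxin 1 rose and 3 fell (57.1%, against 54.8%). VIM read 13.26, 13.19 and 13.26 with manassantin, 13.22, 13.21 and 13.22 with rotenone and 13.08, 13.05 and 13.03 with digoxin, against 13.30, 13.19 and 13.22 with DMSO. The digoxin arrays were the lowest, by 0.18 ± 0.045 (SE, limma adjusted p = 0.00447), a call that ended with centred arrays (-0.10, limma adjusted p = 0.0734). With manassantin the VIM difference was 0.00 (95% confidence interval -0.10 to 0.10). CDH11, a cadherin of mesenchymal cells, read 9.62, 9.62 and 9.63 with rotenone and 9.26, 9.05 and 8.99 with digoxin, against 9.85, 9.83 and 9.89 with DMSO. It fell by 0.75 ± 0.063 with digoxin and by 0.23 ± 0.063 with rotenone (SE, limma adjusted p = 7.49e-07 and 0.0482), and the rotenone call was lost with each of the 6 arrays left out in turn. ZEB1, a repressor of E-cadherin, read 9.62, 9.63 and 9.63 with digoxin, against 9.27, 9.46 and 9.44 with DMSO, a rise of 0.24 ± 0.064 (SE, limma adjusted p = 0.00776). SNAI2, another such repressor, was at -0.27 ± 0.079 with digoxin (limma adjusted p = 0.0125), a call that ended with centred arrays (limma adjusted p = 0.0541).

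CDH1 itself, which those repressors act on, was dim in every group and not called, at -0.08 with manassantin, 0.11 with rotenone and 0.12 with digoxin (95% confidence intervals -0.30 to 0.14, -0.11 to 0.33 and -0.09 to 0.34). CDH2 was dim as well and stood at 0.06, 0.02 and 0.14. TWIST1 was among the dimmest members and was not called. In the list of epithelial markers 18 of 20 genes were measured, and with digoxin 11 fell and 2 rose (72.2% called), against 26.9% of all genes lower and 28.0% higher. KRT19, a keratin of simple epithelia, fell by 1.24, JUP by 0.48, CLDN7 by 0.46 and EPCAM by 0.44. With manassantin and with rotenone 0 of the 18 were called, against 0.97% and 6.94% of all genes. Of the 18, 4 and 2 reached an unadjusted p under 0.05. In these bulk RNA samples fewer cells of a kind and less RNA per cell cannot be told apart.

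Manassantin against rotenone compared these compounds directly, without the DMSO arrays in the contrast. LOXL1 was higher with manassantin by 0.48 ± 0.063, COL5A1 by 0.45 ± 0.12, LAMB2 by 0.35 ± 0.065, HSPG2 by 0.34 ± 0.073, COL7A1, the anchoring fibril collagen, by 0.32 ± 0.072 and COL13A1 by 0.22 ± 0.054 (SE, limma adjusted p = 0.000974, 0.034, 0.00792, 0.0146, 0.0188 and 0.0284). HSPG2 read 7.90, 7.92 and 7.86 with manassantin, against 7.65, 7.53 and 7.46 with rotenone, and COL7A1 read 6.89, 6.86 and 6.82 with manassantin, against 6.51, 6.60 and 6.49 with rotenone. The arrays of the groups did not overlap for either gene. COL5A1 read 8.90, 8.62 and 8.64 with manassantin, against 8.48, 8.19 and 8.12 with rotenone. Here too the groups did not overlap, although replicate 1 was the highest array in both. LOXL1 and LAMB2 were called with each of the 6 arrays left out in turn. The count was 2 without rotenone replicate 3, 3 without rotenone replicate 2 and 2 without replicate 1 of every group, a setting chosen after seeing the data. VIM, CDH1, CDH2, FN1, SPARC, THBS1, CCN1, CCN2, COL4A1, ZEB1 and SNAI2 did not pass between the compounds, and COL4A2 stood at 0.19 (limma adjusted p = 0.0662).

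With the replicate number as a block, 12 members were called between manassantin and rotenone, 11 higher and 1 lower, and all 6 of the calls above were among them. The same blocked fit called 11.3% of all genes, 763 higher and 589 lower. The same-numbered arrays of manassantin and rotenone correlated at 0.107 to 0.362, and manassantin replicate 1 with rotenone replicate 3 at 0.109. The members added were AGRN (0.20), COL4A2 (0.19), COL6A1 (0.23), COL18A1 (0.23) and COL6A3 (0.25), each higher with manassantin, and the dim LAMA4, a laminin alpha chain, which was lower (-0.32, limma adjusted p = 0.0346).

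Genes that fold, trim and cross-link collagen were described from a second list, with 19 of 22 measured. With manassantin P4HA1, a collagen prolyl hydroxylase, rose by 0.33 and LOX, lysyl oxidase, by 0.38 (limma adjusted p = 0.0178 and 0.0421), and 0 fell. These are 10.5% called, against 0.97% of all genes. Manassantin calls over all genes numbered 116, but 3 with the 18S covariate and 4 in a fit of only the 2 groups. With rotenone 0 were called (against 6.94% of all genes), where 2 reached an unadjusted p under 0.05. Digoxin raised 3 and lowered 6 (47.4% called, against 54.8% of all genes), among them PLOD2, a lysyl hydroxylase, which rose by 1.01, and LOX, P4HA2 and SERPINH1, the collagen chaperone, at -0.76, -0.72 and -0.59. Against rotenone, manassantin cells were higher in P4HA2 by 0.37 and in P4HA1 by 0.25. Of 16 TGF-beta ligands, receptors and latency proteins, digoxin raised 3 and lowered 5 (50% called, against 54.8% of all genes). TGFB2, a ligand, rose by 0.97. The latent TGF-beta binding protein genes LTBP1, LTBP3 and LTBP2 stood at -0.64, -0.53 and -0.48. In the same list 0 were called with manassantin (against 0.97% of all genes), where 5 reached an unadjusted p under 0.05. Rotenone raised TGIF1, a corepressor of the pathway, by 0.26 (6.25% called, against 6.94% of all genes). Between manassantin and rotenone WWTR1 was at 0.25 and YAP1, TAGLN and SRF were at -0.32, -0.26 and -0.24, KRT19 and TJP3 were at 0.30 and 0.29, and BAMBI was at -0.20, all of them called.

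**Figure D4:**
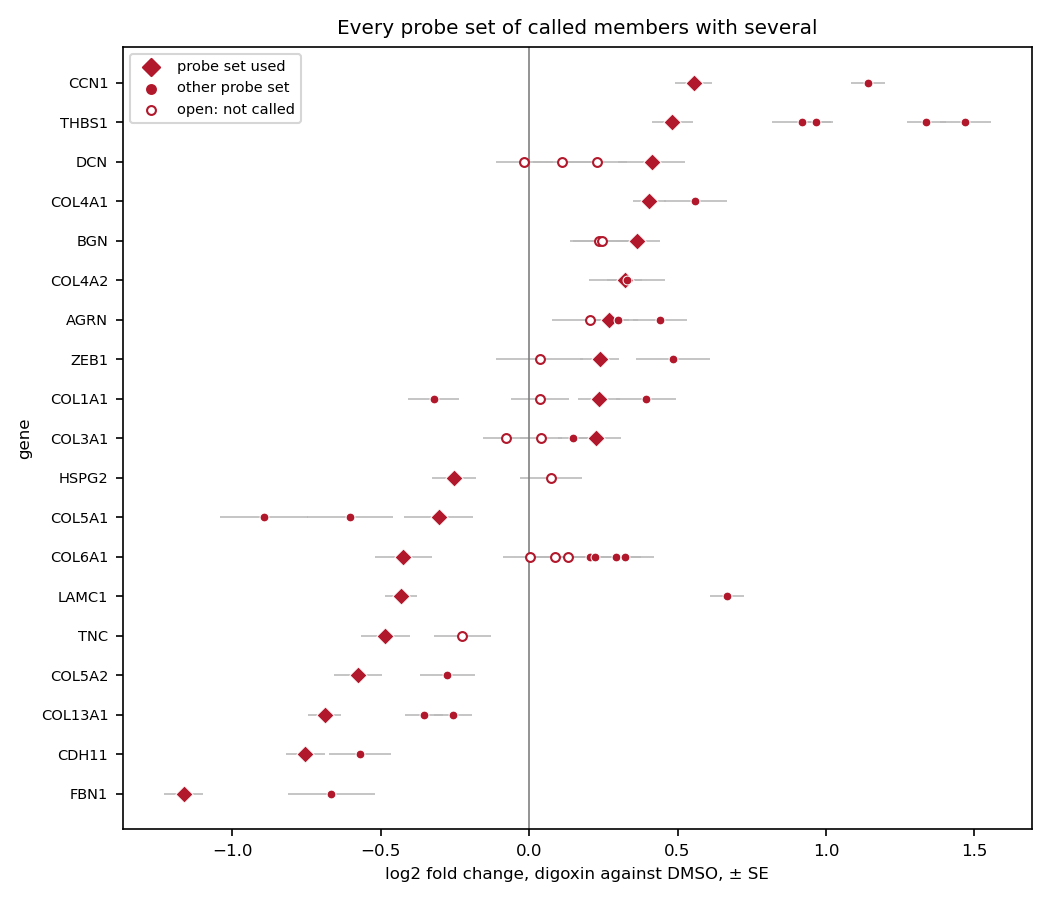
Log2 fold change of digoxin against DMSO, with its SE, for every probe set of the 19 called members that have several; diamonds are the probe sets used, circles the others, and open symbols did not pass in a fit of every probe set. The other probe sets of LAMC1, COL6A1 and COL1A1 include ones called in the opposite direction, while those of THBS1 and CCN1 lie further up than the one used.

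Probe sets of a gene can target different ends or transcripts, so they were compared for the digoxin calls. Of the 29 called members 19 had other probe sets. For 12 of these another was called in the same direction and none in the opposite one, for 3 (COL1A1, COL6A1 and LAMC1) another was called in the opposite direction, and for 4 (BGN, DCN, HSPG2 and TNC) no other was called. In all, 25 of the 29 digoxin calls held with each of the 6 arrays left out in turn, the exceptions being COL1A1, COL3A1, COL5A1 and SNAI2.

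Several matrix genes also differed by replicate number, whatever the treatment. For 12 of the 51 members (23.5%) replicate 1 was the highest array in all 4 groups, against 3.74% of all genes, and replicate 1 was the lowest in all 4 groups for 0 members. They were TGFBI, COL6A3, FN1, COL6A2, COL5A1, EFEMP1, COL18A1, COL6A1, SNAI2, PLOD1, LAMC1 and AGRN. TGFBI, a TGF-beta-induced adhesion protein, read 10.33 with manassantin, 10.17 with rotenone, 10.14 with digoxin and 10.33 with DMSO on replicate 1 arrays, and between 9.51 and 9.82 on the other 8 arrays. COL6A3 was higher on replicate 1 than on the mean of the others by 0.24 with manassantin, 0.33 with rotenone, 0.40 with digoxin and 0.39 with DMSO. On the same arrays the 3' minus 5' difference of the dap spike-in control, which reads the 3' bias of the target, was the lowest of its group in 4 of 4 groups, at 2.55 to 3.002, against 2.77 to 3.72 on the others. That of the thr control was also lowest in 4 of 4 groups, and that of ACTB in 3 of 4, with replicate 1 the highest on digoxin arrays. Their part in the result was not tested, and the labels do not say what the replicate number marks.

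**Figure D5:**
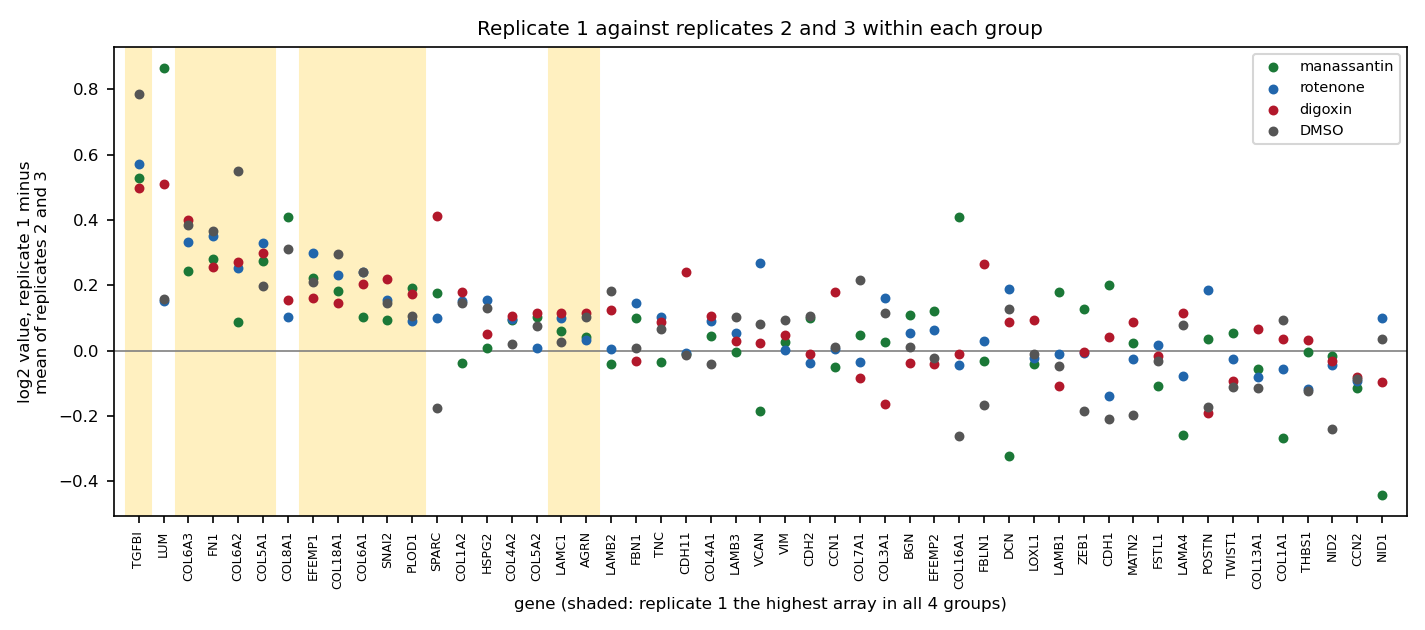
Log2 value of replicate 1 minus the mean of replicates 2 and 3 within each group (points, 1 colour per group) for the 51 members, sorted by the mean over groups. Shaded genes had replicate 1 as the highest array in all 4 groups, with TGFBI from 0.50 to 0.79.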

How the data were processed

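Each of 12 arrays measured total RNA of MDA-MB-231 cells in 1 of 4 groups, taken with replicate numbers from the sample titles. Per the labels, RNA was amplified, labelled with biotin and hybridized to GeneChip arrays. The deposited values were read as log2 intensities from their range, 1.66 to 13.75, with array medians of 5.88 to 5.995; how the authors summarised and normalized them is unstated in the sources used here. A platform annotation named 1 gene for 19064 of 22277 probe sets, several for 1043 and none for 2108; 62 were controls. All 19052 with a current record kept their symbol, as did the 12 without. The probe set with the highest mean represented each of 11963 genes.

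One limma 3.58.1 model (R 4.3.3) was fitted to all 12 arrays, with group as the only term (8 residual and 3.68 prior degrees of freedom), two-sided, and Benjamini-Hochberg adjustment over all genes. The procedure was tested on simulated data. The number of arrays limits the precision. Members and gene lists were chosen with earlier results of these data known. Named genes were every called member up to 8 per direction, otherwise the 8 largest, 12 fixed members, and up to 4 called genes of a background list; other members are named for completeness. Promoter sequences came from RefSeq (GRCh38.p14) for 35 measured members; that of CDH1 was to be shown and was not used here. Same-numbered arrays deviated together across genes for manassantin and rotenone (correlations 0.256, 0.362 and 0.107, each over the limit of 0.1). In the other comparisons not every pair did, so the blocked fit is described member by member for manassantin against rotenone only. Against DMSO, its counts and its EFEMP1 call are given. Some arrays with different numbers passed the limit too, such as manassantin 1 with rotenone 3 (0.109) and with DMSO 3 (0.152). Passing it therefore does not by itself show that arrays are paired by number. Alternatives were centring arrays on their median, array weights, quantile normalization, each probe set alone or averaged per gene, dropping dim genes, a robust trended prior, only the groups compared, a replicate block, an 18S covariate and leaving out arrays. Figures used Python 3.11.15 and matplotlib 3.10.9.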

Additional observations from a re-analysis of the deposited data

How the results depend on the processing

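The digoxin count of 29 called members stayed between 27 and 33 in all alternatives, with 27 to 31 when 1 array was left out. The manassantin count of 2 was 0 in a fit of only the 2 groups compared, 0 with the 18S rRNA control as a covariate, 0 without replicate 1 of every group (chosen after seeing the data), and 0 to 1 when 1 array was left out (1 without DMSO replicate 1, 0 without each of the others). It was 2 or 3 in the other alternatives. Over all genes the manassantin count of 116 also shrank, to 4 with only the 2 groups, 3 with the 18S covariate and 1 without replicate 1. The rotenone count of 6 was 1 with the 18S covariate, 0 without replicate 1 of every group, and 1 to 3 when 1 array was left out (1 without DMSO replicate 2, 2 without DMSO replicate 3, and 3 without each of the others). It was 5 to 8 otherwise. The rotenone count over all genes was 830, and it was 339 with the 18S covariate and 265 without replicate 1 of every group. Between manassantin and rotenone the count of 6 members was 12 with the replicate block, 2 without replicate 1 of every group, 2 to 7 when 1 array was left out and 4 to 9 otherwise. For all genes that count was 1013, and it was 1352 with the block and 226 without replicate 1 of every group. The fits without arrays rest on fewer samples; the cause of the other changes was not tested. The replicate block gave 3 members with manassantin, 6 with rotenone and 31 with digoxin against DMSO, where the labels do not pair the arrays. Over all genes, array centring gave 5020 higher and 2685 lower with digoxin, where uncentred arrays gave 3347 and 3214. With probe sets averaged per gene, the digoxin differences of COL6A1 and LAMC1 were reversed, at 0.105 and 0.12. Dim members have readings near the low end of the arrays, which limits what their differences show.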

Other observations

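Markers outside the members were described for the same arrays. Of 11 measured mesenchymal markers, 36.4% were called with digoxin, against 54.8% of all genes. Digoxin raised ENG, endoglin, by 0.42 and the dim PRRX1 by 0.28, and MSN, moesin, and S100A4 stood at -0.22 and -0.22. With manassantin 0 of the 11 were called (against 0.97% of all genes) and 1 reached an unadjusted p under 0.05. With rotenone 0 were called (against 6.94%) and 0 reached it. ENG was lower with manassantin than with rotenone, by 0.49 on the log2 scale (limma adjusted p = 0.0121). Of the receptor genes whose products triple-negative tumours lack, PGR was not called with digoxin. With digoxin ERBB2 fell by 0.48 and ESR1 rose by 0.29 (limma adjusted p = 9.45e-06 and 0.00665).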
